A study of Rattus norvegicus with 18 samples.

Results

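Tnfrsf9, Tnfrsf4, Tnfrsf18, Tnfrsf25, Cd27, Tnfrsf1b, Tnfrsf1a, Fas and Traf1 were followed in rat CD4+ T cells as a set of TNF receptor family costimulators. The 8 receptors and the adaptor Traf1 were taken as a named gene set that was drawn up with earlier results of these data known, and each name matched 1 of the 32882 genes listed in each of 3 tables of read counts. All 9 were found in all 3 tables. The level of each gene was described in every library, and knockout (KO) cells were compared with control cells in the spinal cord parenchyma and in the spleen.

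The cells were T-MBP cells, CD4+ T cells that recognise myelin basic protein (MBP) and cause a multiple sclerosis-like disease, experimental autoimmune encephalomyelitis, when they are transferred into Lewis rats. They were grown from the lymph nodes of an MBP-immunised Lewis rat, restimulated with MBP and irradiated thymocytes before transfer, and isolated on day 3 after it. Every group therefore consisted of an activated, cultured T cell line that came from the immunised rat, and not of the recipient rats' own T cells. Cas9 and a single guide RNA were delivered as ribonucleoprotein, so that each group was a pool of edited cells and not a clone. Control cells had received a non-targeting (NT) guide, were labelled WT and carried blue fluorescent protein (BFP). Ets1-KO and Grk2-KO cells carried green fluorescent protein (GFP), so that the colour and the targeted gene cannot be told apart in any comparison. The 6 groups of 3 libraries were control and Ets1-KO cells from the parenchyma, control and Ets1-KO cells from the spleen, and a further set of control and Grk2-KO cells from the spleen. According to the paper, the parenchymal Ets1-KO and control cells had been transferred together into the same rats. Parenchymal cells were taken from a Percoll gradient and spleen cells by a CD4+ T cell enrichment kit before both were sorted by colour, so that tissue and preparation differed together. The rats of the study were 5 to 20 weeks old and of both sexes, and the age within each group is not given in the sources used here.

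Members of the TNF receptor superfamily are trimeric receptors on the cell surface whose ligands are mostly carried by antigen-presenting cells. Costimulatory members such as CD137 (Tnfrsf9), OX40 (Tnfrsf4), GITR (Tnfrsf18) and CD27 recruit TRAF adaptors to their tails and switch on NF-kB, and several of them appear only after the T cell receptor has been engaged. Members with a death domain, such as TNFR1 (Tnfrsf1a), Fas and DR3 (Tnfrsf25), bind adaptors of another kind and can lead to cell death or to NF-kB signalling. ETS1 is a transcription factor of lymphocytes, and GRK2 is a kinase that phosphorylates G protein-coupled receptors.

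The guides are shown because they define the 3 kinds of cells compared. They are written 5′ to 3′ as listed with the study, and their positions in the genome were not looked up here.
Ets1 guide: tgctgctcggagttaacagt
Grk2 guide: gatttgtcagaacctccgag
non-targeting guide: gctgcatggggcgcgaatca

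The start regions of 3 genes are shown because Tnfrsf9, Tnfrsf4 and Traf1 were the members whose difference between Ets1-KO and control cells passed the test in the parenchyma. Each run holds the 250 bases before and the 50 bases from the annotated start of the gene, 5′ to 3′ on the strand of the gene, from RefSeq on build GRCr8. Capitals mark matches, on either strand, to GGAAGT or CCGGAA (forms of the core that ETS factors bind), TGANTCA (AP-1), GGGAANTCC (NF-kB) or TGTGGT (RUNX). GGAAGT and CCGGAA can share their GGAA.
Tnfrsf9 (chr5:166664244-166664543, plus strand): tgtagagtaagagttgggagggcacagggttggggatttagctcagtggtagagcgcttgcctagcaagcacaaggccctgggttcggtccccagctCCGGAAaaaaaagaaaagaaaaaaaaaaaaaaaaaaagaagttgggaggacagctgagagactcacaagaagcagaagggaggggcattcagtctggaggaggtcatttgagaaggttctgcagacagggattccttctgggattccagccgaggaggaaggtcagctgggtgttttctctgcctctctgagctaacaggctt
Tnfrsf4 (chr5:171888884-171889183, plus strand): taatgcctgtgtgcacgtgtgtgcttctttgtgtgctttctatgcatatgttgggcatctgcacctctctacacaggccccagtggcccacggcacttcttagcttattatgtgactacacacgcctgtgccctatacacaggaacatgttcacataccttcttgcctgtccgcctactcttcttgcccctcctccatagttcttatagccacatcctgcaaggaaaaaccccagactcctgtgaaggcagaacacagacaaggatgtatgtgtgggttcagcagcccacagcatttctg
Traf1 (chr3:38635721-38636020, minus strand): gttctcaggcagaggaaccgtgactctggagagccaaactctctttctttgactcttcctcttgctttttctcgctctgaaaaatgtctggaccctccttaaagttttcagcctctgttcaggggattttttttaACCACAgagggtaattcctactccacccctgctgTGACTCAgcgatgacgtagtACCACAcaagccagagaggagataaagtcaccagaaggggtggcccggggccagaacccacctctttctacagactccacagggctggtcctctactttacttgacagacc

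The start region of Tnfrsf9 held 1 CCGGAA, at position -153 from the start, directly before an A-rich run. Whether this stretch belongs to a repeated element was not looked up. The start region of Tnfrsf4 held none of the 5 motifs. That of Traf1 held 1 TGANTCA at -81 and 2 matches to TGTGGT, at -115 and -61. Of 27457 rat start regions of this length, 15.8% held CCGGAA, 22.8% GGAAGT, 7.33% TGANTCA, 1.32% GGGAANTCC and 16.9% TGTGGT. Start regions were matched for 8 of the 9 genes, all but Tnfrsf18, and among the other matched genes CCGGAA was found in Tnfrsf1a, GGAAGT and GGGAANTCC in Fas, TGANTCA in Tnfrsf1b and Fas, and TGTGGT in Tnfrsf25, with 2 matches at -142 and -92. These matches describe letters and not bound sites.

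On the build of the count tables, Rnor_6.0, 5 of the 9 genes lay on chromosome 5 within 10.3 Mb. Tnfrsf4 (chr5:173447783-173450474) and Tnfrsf18 (chr5:173460353-173463140) were neighbours on the plus strand, 9.88 kb apart. Tnfrsf9 lay at chr5:168009392-168035810, Tnfrsf25 at chr5:169288870-169293137 and Tnfrsf1b at chr5:163136389-163167299. Cd27 (chr4:157744881-157750088) and Tnfrsf1a (chr4:157864968-157877633) lay 115 kb apart on opposite strands, Fas at chr1:252589784-252624790 and Traf1 at chr3:14003339-14022672. Intervals between genes were taken from the gene ends in the tables.

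The libraries held 898092 to 2248258 reads on genes, and within each table reads were divided by a size factor per library to give normalized counts. In the spleen Ets1 experiment the KO libraries held 1909862 to 2248258 reads and their controls 898092 to 1213485, so that low genes were measured more finely in the KO cells. Of the 10 T cell markers all had reads in every group, with summed levels of 3151 to 4184 RPM (reads scaled to the same library total of reads on genes), although Cd4 itself reached only 4.995 to 34.8. B cell markers summed to at most 9.89 RPM in any library and erythroid and platelet markers to at most 30.0. Foxp3, which defines regulatory T cells, reached at most 2.09 RPM, and Ikzf2 and Lrrc32 had no read in any library. Myeloid markers summed to 22.0 to 55.5 RPM in the parenchyma and to 0.848 to 15.8 in the spleen, and neural markers to 34.5 to 64.7 against 17.3 to 35.6. What part RNA from other cells had in any level was not tested, and in bulk samples fewer cells that express a gene and less RNA per cell cannot be told apart.

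Ets1 was 2302 to 2573 normalized counts in the parenchymal controls and 2342 to 2682 in the Ets1-KO cells, and 1965 to 2227 against 1763 to 2369.8 in the spleen. The groups overlapped in both tissues, with log2 fold changes of 0.09 ± 0.07 (SE, limma, adjusted p = 0.56) and -0.06 ± 0.11 (adjusted p = 0.854). Reads were counted at 3′ ends, where an edit elsewhere in the transcript need not show. The Ets1 level therefore did not check the labels, and why it did not differ was not tested. According to the paper, the single KO lines of its validation experiments were checked for editing efficiency before use. Grk2 was 142 to 166 normalized counts in the spleen controls and 53.3, 64.2 and 87.3 in the Grk2-KO cells. It was lower in 3 of 3 replicate numbers, with a log2 fold change of -1.22 ± 0.13 (SE, limma, adjusted p = 1.76e-12).

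Levels in control cells are given in RPM, because the tables were scaled separately. They carry no test between tissues for the same reason. In 3 of the 9 genes, Tnfrsf9, Tnfrsf4 and Fas, all 3 parenchymal control libraries lay above all 6 spleen control libraries, an order found in 10.7% of the 7778 genes that passed the minimum in at least 1 table. In 1 gene, Tnfrsf25, all 3 lay below, an order found in 14.5% of those genes. The other 5 genes overlapped between the tissues.

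Tnfrsf9, the receptor CD137, was at 171, 146 and 127 RPM in the parenchymal controls. The spleen controls of the Ets1 experiment had no Tnfrsf9 read among 3312721, which allows up to 0.906 RPM, and those of the Grk2 experiment had 3 reads among 3661374. Tnfrsf9 was thus at least 164-fold higher in the parenchyma than in the first set of spleen controls, against a floor of 3 reads over the group. Against the second set the ratio was 181, with a 95% counting interval of 61.9 to 877 (exact Poisson interval). Such intervals and limits cover counting error only.

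Tnfrsf4, the receptor OX40, was at 124, 124 and 106 RPM in the parenchymal controls. In the spleen it was at 14.0, 4.995 and 10.02 in the controls of the Ets1 experiment and at 19.5, 17.1 and 19.0 in those of the Grk2 experiment. The mean was 12.2 times and 6.37 times as high in the parenchyma as in the first and second spleen sets. The 2 spleen sets did not overlap with each other either, the second being 1.92 times the first.

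Fas, the death receptor CD95, was at 78.2, 65.3 and 71.0 RPM in the parenchymal controls and between 26.7 and 45.7 in the 6 spleen controls, with a median of 41.2. The ratio of means was 2.19 and 1.62 for the first and second spleen sets. Tnfrsf25, the receptor DR3 for the ligand TL1A, was ordered the other way. It was at 143, 146 and 151 RPM in the parenchyma, at 302, 278 and 295 in the first spleen set and at 450.4, 513 and 547 in the second. The spleen means were 1.99 and 3.43 times the parenchymal mean, and the second spleen set was 1.73 times the first.

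The remaining members kept no order between the tissues across both spleen sets. Traf1, an adaptor that joins TRAF2 at receptor tails, was at 49.8 to 74.9 RPM in the parenchymal controls, which overlapped with the 62.4 to 85.8 of the first spleen set but lay below the 140.0 to 154 of the second. Tnfrsf18, the receptor GITR, spread from 46.6 to 94.3 in the parenchyma and was at 42.3 to 55.8 and 83.7 to 95.9 in the spleen sets. Tnfrsf1b, the receptor TNFR2, was at 212 to 232 in the parenchyma and 154 to 221 in all 6 spleen controls. Cd27 (0.824 to 17.8) and Tnfrsf1a (1.65 to 8.56) were low in all 9 control libraries, and their groups overlapped. The 2 spleen sets differed without overlap for Tnfrsf4, Tnfrsf18, Tnfrsf25, Fas and Traf1, in each case with the Grk2 experiment higher. The same 2 sets did not overlap in 58.8% of the 7778 genes, in either direction, and 5 of 9 members apart lay near that share. The Grk2 experiment was the higher without overlap in 29.3% of those genes, and it was the higher in all 5 of these members.

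**Figure D1:**
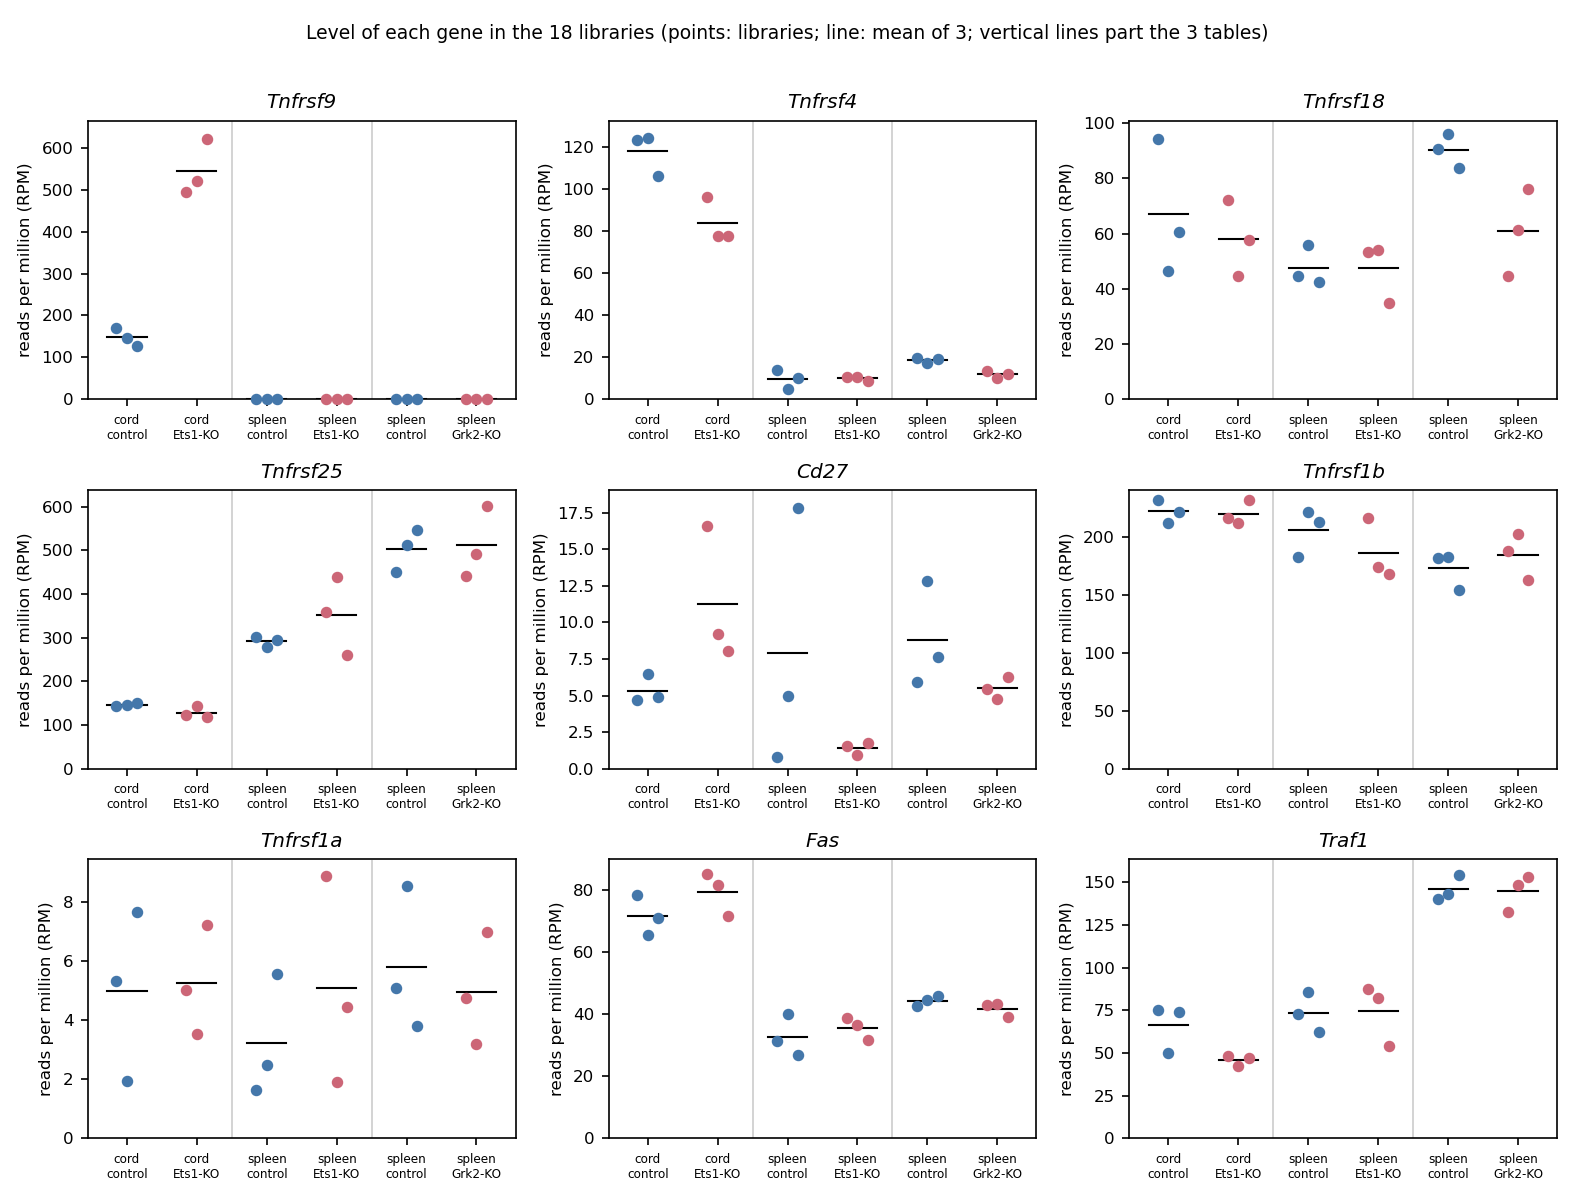
Level of each of the 9 genes in RPM, reads scaled to the same library total (vertical axes from 0), for 6 groups of 3 libraries; points are libraries, horizontal lines are means of 3, blue is control and red is KO. Tnfrsf9 was at 494 to 621 in Ets1-KO and 127 to 171 in control cells of the cord parenchyma and at most 1.70 in any spleen library, while Tnfrsf25 was lower in the cord than in the spleen.

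The first comparison asked how loss of Ets1 changed these genes in cells that had reached the parenchyma. Tnfrsf9 rose 3.66-fold in Ets1-KO cells, while Tnfrsf4 and Traf1 fell to 0.71 of the control level. Of 8 members that passed the minimum of 10 mean normalized counts, 3 passed the test (limma with the replicate number as a block, Benjamini-Hochberg adjusted p under 0.05 over 7002 genes), against 5.23% of all genes tested. The 1 member that rose stands beside 2.27% of all genes and the 2 that fell beside 2.96%. Of all called genes 43.4% were higher in KO cells, and 53.6% with TMM scaling, under which Tnfrsf9 still rose and Tnfrsf4 still fell. Control and KO libraries did not overlap in 4 of the 8 members (Tnfrsf9, Tnfrsf4, Cd27 and Traf1), against 18.4% of all genes. Cd27 passed the minimum only through the KO cells (means of 7.61 and 15.9 normalized counts in control and KO cells), so the filter favoured a difference there, and 3 of the other 7 members did not overlap. The median log2 fold change was -0.10 over the 8 members, -0.18 without Cd27 and -0.03 over all genes. For 1 gene alone, an exact two-sided permutation test of 3 against 3 libraries cannot give a p below 0.1, and these 4 members gave that value.

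Tnfrsf9 was at 239, 212 and 179.9 normalized counts in the control cells and at 693, 743 and 877 in the Ets1-KO cells. Every KO library was far above every control library. The log2 fold change was 1.87 (95% interval 1.69 to 2.05, adjusted p = 6.60e-86, limma), and by replicate number it was 1.53, 1.81 and 2.28. The limma model took its spread from the trend over all genes in this table, since its prior degrees of freedom were infinite, and the standard error from the 3 replicate numbers alone (0.22) was wider than the modelled one (0.09). The adjusted p was 8.91e-15 with DESeq2 and 5.52e-16 without the block, and it was 0.105 when no trend was fitted, a setting under which 3 genes passed in all and Tnfrsf9 was not among them (range over 13 alternatives 8.64e-89 to 0.105).

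Tnfrsf4 was at 173, 181 and 150.4 normalized counts in the control cells and at 135, 111 and 109.9 in the Ets1-KO cells. The groups did not overlap, and control replicate 3 came nearest to the KO cells. The log2 fold change was -0.50 ± 0.13 (SE, 95% interval -0.75 to -0.25, adjusted p = 0.00403, limma), and Tnfrsf4 was lower in 3 of 3 replicate numbers. It did not pass with DESeq2 (adjusted p = 0.29), without a trend (0.312) or without replicate 2 (0.221), and over 13 alternatives its adjusted p ran from 0.00366 to 0.312.

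Traf1 was at 105, 72.4 and 104 normalized counts in the control cells and at 67.7, 60.7 and 66.9 in the Ets1-KO cells. It was lower in 3 of 3 replicate numbers, but control replicate 2 lay close to the KO libraries. The log2 fold change was -0.50 ± 0.16 (SE, 95% interval -0.82 to -0.18, adjusted p = 0.0409, limma). Of 13 alternatives 3 kept the call, with adjusted p from 0.0324 to 0.57, and it was lost without the block (adjusted p = 0.122), with TMM scaling (0.0582), with edgeR (0.0532), with DESeq2 (0.57) and without any 1 of the 3 replicates (0.0551 to 0.282).

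Cd27, the receptor for CD70, was at 6.54, 9.40 and 6.88 normalized counts in control and 23.3, 13.1 and 11.3 in Ets1-KO cells, which rested on 7 to 23 reads per library. The groups did not overlap, but the log2 fold change of 0.92 (95% interval 0.15 to 1.70) did not pass the test (adjusted p = 0.171, limma). Tnfrsf18 gave a log2 fold change of -0.18 (95% interval -0.48 to 0.13, adjusted p = 0.611), with overlapping groups of 67.7 to 132 and 63.7 to 101 normalized counts. Tnfrsf25 gave -0.20 (95% interval -0.42 to 0.03, adjusted p = 0.376), at 199.9 to 213 in control and 169 to 204 in KO cells.

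Among the receptors for TNF and for Fas ligand, no member passed the test in the parenchyma. Tnfrsf1b was at 308 to 324 normalized counts in control and 302 to 328 in Ets1-KO cells, a log2 fold change of -0.02 with a 95% interval of -0.21 to 0.17 (adjusted p = 0.953, limma). Fas was at 94.98 to 109 against 101 to 119 (log2 fold change 0.14, 95% interval -0.14 to 0.42, adjusted p = 0.676, limma). Tnfrsf1a stayed below the minimum, at 2.82 to 10.8 in control and 5.05 to 10.2 in KO cells, and was not tested.

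Some markers moved with the same contrast in the parenchyma. Il2ra, the alpha chain of the interleukin-2 receptor and a gene of activated as well as regulatory T cells, was at 638 to 668 normalized counts in control and 958 to 1044 in Ets1-KO cells (log2 fold change 0.62, adjusted p = 1.89e-12, limma). It was the 1 marker of 8 on the regulatory T cell list that rose, 3 being testable, and the summed list was at 984 to 1062 against 1271 to 1324 RPM. The CD8 and NK cell list, summed, was at 50.8 to 54.3 against 64.2 to 68.0, with no read of Cd8b or Ncr1. None of its 2 testable genes passed the threshold. Cd8a was too low to be tested, at 0 to 2.67 RPM in control and 4.01 to 7.20 in Ets1-KO cells, without overlap. Myeloid markers were at 22.0 to 41.7 against 35.4 to 55.5, with Adgre1, Cd163 and Mrc1 at 0. Of these 14 markers only 1, Lyz2, could be tested, and it did not pass the threshold. Their part in the difference of Tnfrsf9 was not tested.

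**Figure D2:**
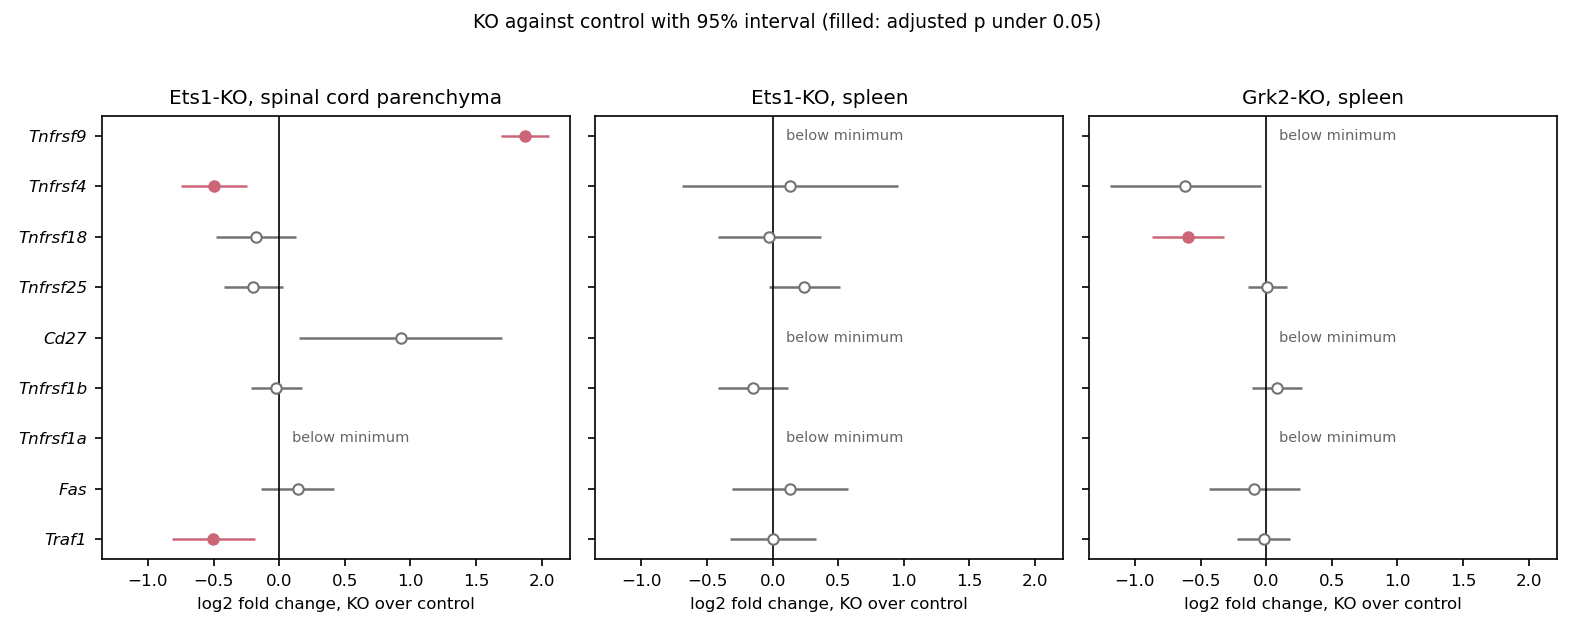
Log2 fold change of KO over control for each gene in the 3 comparisons (horizontal axes), with bars for the 95% intervals; filled points passed an adjusted p under 0.05, and genes below the minimum have no point. In the parenchyma Tnfrsf9 stands at 1.87 and Tnfrsf4 and Traf1 at -0.50, and in the Grk2 comparison Tnfrsf18 stands at -0.60.

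In the spleen, the same comparison asked whether the Ets1 effect was present outside the target tissue. None of the 6 members that passed the minimum passed the test in the spleen (limma, 0 at an unadjusted p under 0.05, 0 with edgeR and 0 with DESeq2), where 2.22% of 6979 genes did, and in none of the 6 did the groups stay apart, as they did in 16.9% of all genes. The median log2 fold change was 0.07 over the 6 members and 0.00039 over all genes.

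Tnfrsf9 could not be compared in the spleen. It had no read in the 3 controls and 2 reads, both in replicate 2, among 6266155 in the Ets1-KO libraries. These totals allow up to 0.906 RPM in the controls, and the KO libraries were at 0, 0.949 and 0. A KO effect on Tnfrsf9 was not detectable in the spleen at this depth.

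Tnfrsf4 was at 18.6, 6.45 and 14.1 normalized counts in the spleen controls and at 13.7, 13.6 and 12.5 in the Ets1-KO cells. The controls spanned the KO libraries on both sides, and the log2 fold change of 0.13 had a 95% interval of -0.69 to 0.95 (adjusted p = 0.924, limma). Traf1 was at 87.8 to 111 in control and 76.2 to 114 in KO cells, with a log2 fold change of 0.00 (95% interval -0.33 to 0.33, adjusted p = 0.999). Fas (0.13, -0.31 to 0.58), Tnfrsf18 (-0.02, -0.41 to 0.37) and Tnfrsf1b (-0.15, -0.42 to 0.12) gave intervals that all hold 0.

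Tnfrsf25 showed the largest log2 fold change of the 6, at 0.24 (95% interval -0.03 to 0.51, adjusted p = 0.426, limma). It was at 400.4, 359 and 415 normalized counts in the controls and at 468, 573 and 367 in the Ets1-KO cells. KO replicate 3 lay among the controls, and without replicate 3 the log2 fold change was 0.45 and passed (adjusted p = 0.0363), while over 13 alternatives the adjusted p ran from 0.0363 to 0.962. Cd27 was below the minimum. Its control replicate 3 was at 25.1 normalized counts, 16 reads, while the other 5 spleen libraries were at 1.09 to 6.45, and B cell markers summed to 3.33 to 9.89 RPM in these 3 controls.

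The test of the difference itself, parenchyma minus spleen, could be made for 6 members and none passed, where 2.1% of 6520 genes did. The tissue difference was -0.63 for Tnfrsf4 (95% interval -1.30 to 0.04, adjusted p = 0.402, limma), -0.50 for Traf1 (-0.96 to -0.04, adjusted p = 0.302) and -0.44 for Tnfrsf25 (-0.79 to -0.09, adjusted p = 0.204). For Tnfrsf18, Tnfrsf1b and Fas the difference lay between -0.15 and 0.13. At an unadjusted p, Traf1 (0.033) and Tnfrsf25 (0.015) were under 0.05. A difference between the tissues in the effect on Tnfrsf4 or Traf1 was thus not shown.

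**Figure D3:**
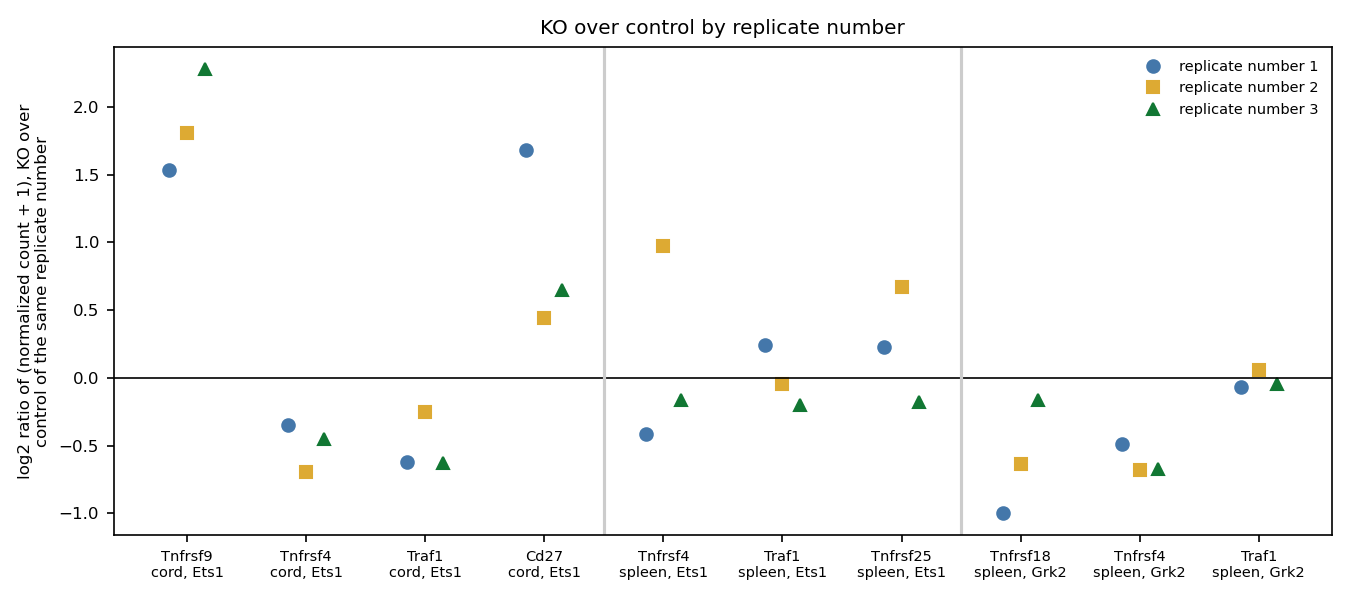
Log2 ratio of KO over control (vertical axis, normalized counts with 1 added) for libraries of the same replicate number, in the comparisons named on the horizontal axis; symbols are replicate numbers 1 to 3. Tnfrsf9 in the cord stands at 1.53 to 2.28, Tnfrsf4 and Traf1 in the cord are below 0 for all 3 numbers, and in the spleen Ets1 comparison each gene shown has ratios on both sides of 0.

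The Grk2 comparison was made in the spleen only. Tnfrsf18 fell to 0.66 of the control level in Grk2-KO cells, and it was the 1 of 6 tested members that passed the test, against 1.56% of 6985 genes and 0.63% of genes that fell. The groups stayed apart in 2 of the 6 members, Tnfrsf18 and Tnfrsf4, against 12.2% of all genes. The median log2 fold change was -0.05 over the 6 members and 0.02 over all genes.

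Tnfrsf18 was at 116, 124 and 111 normalized counts in the controls and at 57.6, 79.7 and 99.1 in the Grk2-KO cells. The KO libraries spread widely, and KO replicate 3 came near the controls. The log2 fold change was -0.60 ± 0.14 (SE, 95% interval -0.87 to -0.32, adjusted p = 0.00462, limma), and by replicate number it was -0.996, -0.63 and -0.17. The standard error from the 3 replicate numbers alone was 0.24, wider than the modelled one. The call held with edgeR (adjusted p = 0.00485) and was lost without the block (0.153), without a trend (0.54), with DESeq2 (0.965, a setting in which 9 genes passed in all), without replicate 1 (0.388) and without replicate 2 (0.48), with a range of 0.00123 to 0.965 over 13 alternatives.

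Its chromosomal neighbour Tnfrsf4 was at 24.9, 22.2 and 25.3 normalized counts in the controls and at 17.5, 13.5 and 15.5 in the Grk2-KO cells. The groups did not overlap, and the log2 ratio was -0.49, -0.68 and -0.68 by replicate number. Each value rested on 13 to 25 reads, and the log2 fold change of -0.62 (95% interval -1.19 to -0.04) did not pass (adjusted p = 0.429, limma). Il2ra was lower in the same cells (log2 fold change -0.42, adjusted p = 0.00512), at 214, 314 and 267 against 152, 219.5 and 225 normalized counts, with overlapping groups, and the other 2 testable genes of the regulatory T cell list did not pass.

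No other member passed the test in this comparison. Tnfrsf25 gave a log2 fold change of 0.01 (95% interval -0.14 to 0.16), Traf1 -0.02 (-0.22 to 0.18), Tnfrsf1b 0.08 (-0.11 to 0.27) and Fas -0.09 (-0.44 to 0.26), intervals that all hold 0. Tnfrsf9 was at 0 to 2.17 normalized counts in these 6 libraries, on 5 reads in all. Tnfrsf1a (4.14 to 11.1) and Cd27 (6.21 to 16.6) stayed below the minimum.

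**Figure D4:**
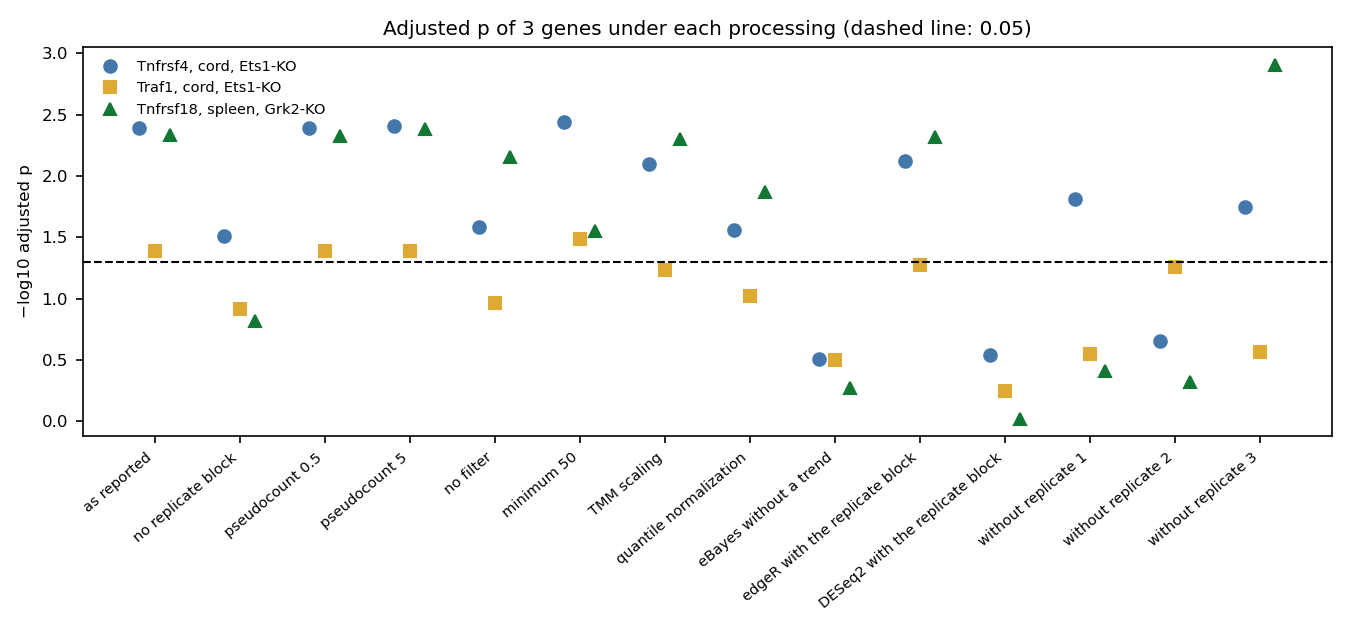
Adjusted p on a −log10 scale (vertical axis) for 3 called genes under the reported processing and 13 alternatives (horizontal axis); the dashed line is 0.05. Traf1 in the cord is above the line in 3 alternatives, Tnfrsf18 in the Grk2 comparison in 8 and Tnfrsf4 in the cord in 10.

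The ligands of these receptors were mostly not seen in the sorted T cells. Tnfsf4 (OX40 ligand), Tnfsf15 (TL1A), Tnfsf18 (GITR ligand) and Cd70 had no read in any of the 18 libraries, nor had Tnfsf11 and Tnfsf13. Tnfsf9, the CD137 ligand, was at 0 to 9.33 RPM. Faslg was at 41.4 to 56.4 RPM in the parenchymal controls and at 18.7 to 26.6 in all 6 spleen controls, so that both Fas and its ligand were higher in the parenchyma in every control library. Of 17 ligands, 2 in each Ets1 table and 3 in the Grk2 table passed the minimum, and none passed the test in any comparison.

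Of 18 other receptors of the superfamily listed for comparison, 17 were in the files, and Relt and Tnfrsf14 alone passed the minimum. Neither passed the test in any of the 3 comparisons. Tnfrsf14, the receptor HVEM, came nearest in Grk2-KO cells, at 41.4 to 44.6 against 60.7 to 72.9 normalized counts (log2 fold change -0.59, adjusted p = 0.0701, limma). Of 23 TRAF and death domain adaptors and other proteins close to the receptors, 21 were tested in the parenchyma. Sharpin (log2 fold change -0.52, adjusted p = 0.00864, limma), a subunit of the linear ubiquitin ligase, fell. Tnip1 (-0.35, adjusted p = 0.00655), a partner of the deubiquitinase A20, fell as well, 0 rose, and the list's median was -0.10. Of all genes tested in the parenchyma, 2.96% fell and 2.27% rose past the threshold.

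Of 10 tested NF-kB factors and inhibitors, Nfkb1 alone passed in the parenchyma and fell (log2 fold change -0.45, adjusted p = 0.0442, limma). Its libraries overlapped, at 89.3 to 144 normalized counts in control and 64.7 to 113 in Ets1-KO cells. Of 10 tested costimulatory receptors of other families, Icos alone passed and rose slightly (0.20, adjusted p = 0.0421, limma). The Icos libraries overlapped as well, at 4908 to 5981 normalized counts in control and 5811 to 6664 in Ets1-KO cells. Both values of adjusted p lay close to 0.05, and how these calls held under other processing is not given here. Of all genes tested in the parenchyma, 5.23% passed. In the spleen no gene of the 5 lists passed the test, in either the Ets1 or the Grk2 comparison.

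Likeness to 2 members was described over all 18 libraries on log2(RPM + 1) among 6207 genes that passed the minimum in all 3 tables. The 5 genes most like Tnfrsf9 were Prdx5 (Pearson's r = 0.987), Prf1 (0.986), Scaper (0.982), Chd7 (0.982) and Stat3 (0.98). Prf1, which encodes perforin, was at 902 to 1077 RPM in the parenchymal controls, 1926 to 2015 in the parenchymal Ets1-KO cells and 131 to 232 in the spleen libraries. The 5 genes most like Tnfrsf4 were Hif1a (0.961), Icos (0.959), Cast (0.954), Ktn1 (0.954) and Abcc5 (0.95). The libraries share tissue, experiment and depth, and these values carry the split between parenchyma and spleen.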

How the data were processed

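T-MBP cells were profiled by 3′ mRNA sequencing in 18 rat libraries, 3 per group. According to the methods, the authors aligned untrimmed reads to Rnor_6.0 with STAR 2.7.2b, counted them per gene with HTSeq 1.0.0, and divided them by poscounts size factors of DESeq2. The deposited signal values (normalized counts) are thus reads per gene over a size factor, computed within each of 3 tables. Whole reads were recovered from their steps with a tolerance of 0.01, and RPM values are these reads scaled to the same library total. Depth was 898092 to 2248258 reads on genes per library.

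Genes with a mean of at least 10 normalized counts in a table were tested on log2(value + 1), which understates changes of low genes, with limma 3.58.1 (R 4.3.3), a trended prior and the replicate number as a block. An adjusted p (Benjamini-Hochberg) under 0.05 counted as a call. The tissue difference was fitted with limma on the KO-over-control ratios of both Ets1 tables. The block follows the authors' correction per animal. The labels do not say that a number marks a shared animal. The limma p-values rest on a spread between libraries that was drawn towards the trend over all genes. In the parenchyma it was the trend alone. This spread may be technical. Levels between tissues were compared without a test. Alternatives were no block, other pseudocounts and minimums, TMM and quantile scaling, no trend, edgeR 4.0.16 and DESeq2 1.42.0 on the recovered reads, and leaving out each replicate. The fits were also run on simulated counts with the same dispersion for every gene and no replicate effect. That simulation cannot show whether the spread taken from the trend holds for the real libraries.

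The 9 genes and the gene lists were chosen with earlier results of these data known. Named besides the 9 were the targeted genes, up to 4 called genes of each list and comparison, markers, and the 5 genes most correlated with Tnfrsf9 and with Tnfrsf4. In the tables, 8 columns of human values, the authors' own fold changes and p-values, and their enrichment lists were not used here.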

Additional observations from a re-analysis of the deposited data

How the results depend on the processing

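The number of genes called moved with the processing, and the cause was not tested beyond what each setting itself changes. In the parenchyma 366 genes were called, against 200 without the replicate block, 212 without a minimum, 90 with DESeq2 and 3 without a trend, and 165 to 278 without 1 replicate (165 without replicate 2, 217 without replicate 1). In the spleen Ets1 comparison 155 were called, against 71 without the block, 242 without a minimum, 238 with edgeR, 48 with DESeq2 and 0 without a trend (785 at an unadjusted p under 0.05, limma), and 3 to 241 without 1 replicate (3 without replicate 1, 241 without replicate 2). In the Grk2 comparison 109 were called, against 19 without the block, 60 with a minimum of 50, 9 with DESeq2 and 0 without a trend (571 at an unadjusted p under 0.05, limma), and 9 to 48 without 1 replicate (9 without replicate 2, 47 without replicate 1 and 48 without replicate 3). For the tissue difference 137 were called, against 47 without the block, 2 without a trend, and 27 to 98 without 1 replicate (27 without replicate 1, 73 without replicate 2). With TMM scaling genes higher in KO cells went from 45.8% to 58.3% of the calls in the spleen Ets1 comparison.

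Members called in the parenchyma went from 3 to 0 without a trend and 1 with DESeq2, and were 1 to 2 without 1 replicate. In the spleen Ets1 comparison they were 0 to 1 without 1 replicate, Tnfrsf25 being the 1. In the Grk2 comparison the 1 member called went to 0 without the block, without a trend and with DESeq2, and was 0 to 1 without 1 replicate. No member was called for the tissue difference under any of 11 alternatives run. The number of members whose control levels did not overlap between the tissues was 4, and 4 to 6 under 6 alternatives.

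Of 315 fold changes of members under alternatives, 272 kept direction and side of the threshold, and the 23 that changed sign belonged to differences near 0 that had not passed. For Tnfrsf1b in the parenchyma these were 0.0044 with DESeq2, 0.0024 with edgeR, 0.0052 with TMM and -0.0624 to 0.017 without 1 replicate. In the spleen Ets1 comparison, Traf1 was at 0.012 with DESeq2, 0.017 with edgeR, 0.00023 with a pseudocount of 5, 0.0083 with quantile normalization, 0.029 with TMM and -0.12 to 0.10 without 1 replicate. There Tnfrsf18 was at 0.0047 with TMM and -0.16 to 0.11 without 1 replicate, and Tnfrsf4 at -0.29 to 0.41. In the Grk2 comparison Tnfrsf25 was at -0.0092 with DESeq2, -0.00502 with edgeR, -0.0085 with quantile normalization, -0.0028 with TMM and -0.0389 to 0.0439 without 1 replicate, and Traf1 at -0.0572 to 0.0064. Without 1 replicate the tissue difference ran from -0.34 to 0.0791 for Tnfrsf18, -0.0092 to 0.35 for Tnfrsf1b and -0.19 to 0.12 for Fas.

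The paper describes the parenchymal Ets1-KO and control cells as transferred together, and a correction per animal where applicable. Whether equal replicate numbers mark the same rat is not settled by the labels. Deviations of same-numbered libraries from their group means correlated by 0.126, 0.159 and -0.003 in the parenchyma, 0.0889, 0.0768 and 0.175 in the spleen Ets1 comparison, and 0.144, 0.0062 and 0.122 in the Grk2 comparison. Every library correlated best with its own number in the spleen Ets1 comparison alone. Without the replicate block the calls of Traf1 in the parenchyma (adjusted p = 0.122, limma) and Tnfrsf18 in the Grk2 comparison (0.153) were lost, and those of Tnfrsf9 and Tnfrsf4 in the parenchyma held.

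With 3 libraries a group and 898092 to 2248258 reads each, Tnfrsf1a in all tables, Cd27 in the spleen and Tnfrsf9 in the spleen lay below the minimum, so their KO effects were not tested. Leaving out a replicate leaves 2 libraries a group.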
